A study of Mus musculus with 24 samples.

Results

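The hindlimb bud of the mouse was compared between embryonic days E10.5 and E11.5 in embryos of the control genotype. The comparison held the 3 libraries labelled E11.5 WT HL and the 3 labelled E10.5 WT HL, 6 of the 24 libraries of the series, which were picked by their labels alone. The 6 libraries came from embryos of a C57/Bl6 background that carried floxed alleles of U11 and no Prrx1-Cre (U11flx/flx::Prrx1-Cre-), so the controls were floxed too. Mutant embryos carried the same alleles with Prrx1-Cre, a recombinase driven by a Prrx1 promoter that is active in limb mesenchyme. Forelimb (FL) and mutant hindlimb libraries of both days, 3 in each group, are used below only for comparison. The labels say neither whether buds were pooled nor which embryo each library came from, so a p-value here measures the spread between libraries. Total RNA was sequenced. Reads of the E10.5 libraries were shortened by 3 nt at the 3′ end per the labels, and no such step is noted at E11.5.

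Between these days the hindlimb bud grows out under 2 signalling centres. Fibroblast growth factors from the apical ectodermal ridge keep the distal mesenchyme dividing, and Sonic hedgehog from the posterior margin patterns the digits. Retinoic acid marks the proximal part of the bud, while late posterior Hox genes mark the distal part, and mesenchyme in the core begins to condense into cartilage. The hindlimb bud trails the forelimb bud in this sequence.

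Expression is given as TPM (transcripts per 1000000) brought to 1 scale across libraries, on which 3518 genes with at least 5 TPM in all 24 libraries have the same median. Changes are differences of log2(TPM + 1), E11.5 minus E10.5, with their standard error (SE), which understate the change of genes with low values. A gene was called at a Benjamini-Hochberg adjusted p below 0.05 in limma, fitted to all 24 libraries. Of 12399 genes tested, 5075 were called (40.9%), 2851 higher (23%) and 2224 lower (17.9%) at E11.5. Among the 10736 nuclear protein-coding genes 42.1% were called, 23.4% higher and 18.8% lower, and 406 of these changed by at least 2-fold. In 28% of the genes all 3 E11.5 libraries lay above all 3 E10.5 libraries, and in 22.1% below. Counts of list members below are to be read against these shares. On the deposited scale, without rescaling, 270 genes were higher and 4011 lower, and the median gene lay at -0.42 instead of 0.06 on the log2 scale. Stage and read trimming cannot be told apart here. In bulk tissue, fewer cells of a type and less RNA per cell cannot be told apart either.

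The RNA make-up of the libraries differed with the day. Structural and small RNAs took 52.4%, 59.5% and 55.0% of the deposited TPM in the E10.5 libraries and 77.3%, 74.0% and 71.9% in the E11.5 libraries. Nuclear protein-coding genes held 24.8% ± 1.37 (SD, n = 3) at E10.5 and 16.1% ± 2.18 (SD, n = 3) at E11.5, without overlap, and the exact permutation test gave p = 0.1, the smallest that 3 against 3 allows. E10.5 replicate 1 stood apart, with 16639 gene symbols above 0 against 20501 and 21408 in the other E10.5 libraries and 22163 to 25114 at E11.5. Its correlations with its own group were 0.939 and 0.932, against 0.964 between the other E10.5 libraries and 0.973 to 0.975 at E11.5. Among the protein-coding genes called higher, E10.5 replicate 1 held the lowest of the E10.5 values in 54.7% and replicate 3 the highest in 48.9%, against 41.0% and 34.2% of all protein-coding genes tested. The limb labels were checked on Tbx5. Tbx5, the forelimb selector, was at most 0.157 TPM in the 6 hindlimb libraries and 2.25 to 10.1 TPM in the 6 WT forelimb libraries. All 6 hindlimb libraries also held Y-linked Ddx3y at 7.91 to 16.5 TPM and Xist at no more than 0.144 TPM.

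Of the hindlimb identity genes, Pitx1 was the member that rose. Pitx1, the transcription factor that sets hindlimb identity, was at 6.30, 8.45 and 17.3 TPM at E10.5 and 18.4, 25.8 and 20.6 TPM at E11.5. All E11.5 libraries lay above the E10.5 libraries, and E10.5 replicate 3 came closest to them (1.05 ± 0.31 log2, adjusted p = 0.0112). That call was lost without E10.5 replicate 1 (adjusted p = 0.0721), without E11.5 replicate 2 (0.0514) and on the deposited scale (0.255). Tbx4, which Pitx1 regulates and which drives hindlimb outgrowth, was at 4.98, 6.25 and 10.1 TPM at E10.5 and 6.30, 9.51 and 7.49 TPM at E11.5. Its groups overlapped and the difference was 0.15 ± 0.25 (adjusted p = 0.673). Isl1, which acts before outgrowth, was at 6.36, 4.82 and 4.44 TPM at E10.5 and 3.71, 3.21 and 4.34 TPM at E11.5, with the E11.5 libraries all lower but without passing the test (-0.38 ± 0.53, adjusted p = 0.593). In all, 1 of the 7 tested identity genes rose and none fell (median -0.09, against 0.06 over all genes tested). The hindlimb HoxC genes Hoxc9, Hoxc10 and Hoxc11 changed by -0.29 ± 0.15, -0.49 ± 0.35 and 0.29 ± 0.28 without passing (adjusted p = 0.136, 0.273 and 0.437).

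The Hox genes split by position along their clusters. In HoxA and HoxD, 7 of 11 posterior members rose and 3 fell, with a median of 0.53 that becomes -0.06 with 3 rises on the deposited scale. Hoxa13 (chromosome 6, 52257694 to 52260880 of GRCm38), which specifies the autopod, was at 0.86, 1.12 and 3.76 TPM at E10.5 and 12.3, 18.2 and 14.9 TPM at E11.5. Each E11.5 library held more than 3 times the level of any E10.5 library, and the rise was 2.58 ± 0.61 (adjusted p = 0.00283). Hoxd13 (chromosome 2, 74668310 to 74671599), its partner in digit formation, was at 0.991, 1.51 and 3.77 TPM at E10.5 and 8.17, 12.5 and 10.2 TPM at E11.5. Again the groups did not overlap and E10.5 replicate 3 was the highest of its group (1.96 ± 0.49, adjusted p = 0.00405). Hoxd12 was at 0.671, 1.72 and 3.69 TPM at E10.5 and 6.07, 8.28 and 5.81 TPM at E11.5 and rose by 1.46 ± 0.43 (adjusted p = 0.0109, but 0.069 without E10.5 replicate 1). Evx2, the homeobox gene next to Hoxd13 that shares its regulatory landscape, was at 0.169, 0.0517 and 0.0492 TPM at E10.5 and 1.54, 1.61 and 1.28 TPM at E11.5. It was close to 0 in every E10.5 library and above 1 TPM in every E11.5 library (1.18 ± 0.27, adjusted p = 0.00204).

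Toward the anterior end of HoxD the sign reversed. Hoxd11, a zeugopod gene, was at 3.81, 4.53 and 9.04 TPM at E10.5 and 7.22, 6.76 and 5.10 TPM at E11.5, with overlapping groups (0.18 ± 0.23, adjusted p = 0.557). Hoxd10 was at 10.3, 10.1 and 9.05 TPM at E10.5 and 6.27, 5.71 and 4.93 TPM at E11.5 and fell to a level below all E10.5 libraries (-0.71 ± 0.17, adjusted p = 0.00314). Hoxd9 and Hoxd8 fell (-0.90 ± 0.21 and -0.88 ± 0.16, adjusted p = 0.0025 and 0.000458), and in the anterior part of the cluster Hoxd4 fell too (-1.38 ± 0.24, adjusted p = 0.000316). The order of the changes thus followed the order of the genes from Hoxd8 to Hoxd13, except that Hoxd9 was marginally below Hoxd8. HoxA did not show this reversal. Hoxa9, Hoxa10 and Hoxa11 rose by 0.46 ± 0.13, 0.80 ± 0.16 and 0.53 ± 0.19 (adjusted p = 0.0078, 0.000835 and 0.033), and of these Hoxa11 alone overlapped between days. Its adjusted p lay above the threshold without any one library other than E10.5 replicate 3 (0.0642 to 0.227), and Hoxa9 and Hoxa11 were at -0.17 and -0.06 on the deposited scale. Of the 8 anterior HoxA and HoxD genes tested, 7 did not pass, with changes from -0.28 to 0.37, and without E10.5 replicate 1 the count of rises went from 0 to 2.

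All 7 tested HoxB genes fell, by -1.47 to -0.43, and each had its 3 E11.5 libraries below its 3 E10.5 libraries. Hoxb9 was at 6.04, 3.60 and 2.59 TPM at E10.5 and 1.10, 0.585 and 0.638 TPM at E11.5, highest in E10.5 replicate 1 (-1.47 ± 0.30, adjusted p = 0.000906). Hoxb6 was at 2.06, 1.49 and 1.17 TPM at E10.5 and 0.315, 0.258 and 0.26 TPM at E11.5 and changed by -1.0 ± 0.19 (adjusted p = 0.000489). These genes are low in the bud, and 4 fell without E11.5 replicate 2 or with no filter on low values. In HoxC, Hoxc6 and Hoxc8 fell (-0.92 ± 0.19 and -0.52 ± 0.17, adjusted p = 0.0011 and 0.0188) and 5 members did not pass, while 6 fell on the deposited scale (median -0.84). Without E10.5 replicate 1 or E11.5 replicate 3 the adjusted p of Hoxc8 was 0.105 and 0.0618, leaving 1 fall. HoxB and HoxC genes are also expressed in the trunk next to the bud. Markers of body wall, somite and lateral plate moved little in sum, 12.1 to 21.7 TPM at E10.5 and 14.3 to 17.4 TPM at E11.5 over 22 markers, of which 7 passed the filter on low values and 1 was at 0 in all 6 libraries. E10.5 replicate 1 held the highest sum, and 1 of these markers rose (Meox2, 1.48 ± 0.32) while Gata6 and Wt1 fell (-1.14 ± 0.36 and -1.38 ± 0.26); the adjusted p was 0.0783 for Gata6 without E10.5 replicate 2. Their part in the fall of HoxB was not tested.

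**Figure D1:**
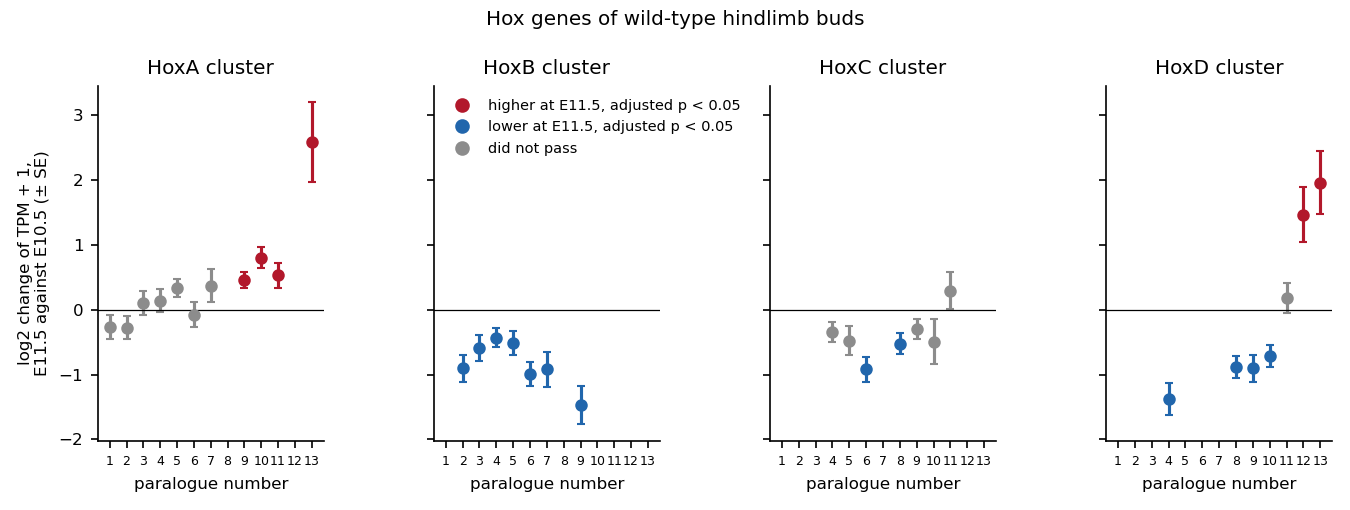
Change of each tested Hox gene in wild-type hindlimb buds, E11.5 against E10.5, on the log2 scale of rescaled TPM + 1 (points, bars ± SE), ordered by paralogue number within the 4 clusters. HoxB lies below 0 throughout, while HoxD runs from -0.88 at Hoxd8 to 1.96 at Hoxd13.

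Hedgehog targets rose. Of 20 tested members of the Hedgehog and posterior mesenchyme list, 8 rose and 1 fell, with a median of 0.48; on the deposited scale 1 rose, 3 fell and the median was -0.00. Shh, the ligand of the polarizing region, was at 0, 0.208 and 0.966 TPM at E10.5 and 1.32, 1.12 and 0.853 TPM at E11.5. It was at 0 in E10.5 replicate 1 and the groups overlapped, and it passed the test narrowly (0.65 ± 0.24, adjusted p = 0.0398). Ptch1 (chromosome 13, 63508328 to 63573598), the receptor and a direct target, was at 1.93, 2.93 and 5.87 TPM at E10.5 and 9.15, 12 and 9.36 TPM at E11.5. Every E11.5 library lay above every E10.5 library (1.37 ± 0.26, adjusted p = 0.000578). Gli1, the transcriptional effector that is itself a target, was at 0.619, 1.69 and 2.61 TPM at E10.5 and 3.63, 4.56 and 3.45 TPM at E11.5 and rose by 0.95 ± 0.26 (adjusted p = 0.00672). The co-receptor Boc was at 1.90, 2.56 and 2.36 TPM at E10.5 and 4.88, 7.86 and 7.32 TPM at E11.5, also without overlap (1.21 ± 0.21, adjusted p = 0.000255). Gli2 rose (0.81 ± 0.22, adjusted p = 0.00634), while Gli3, whose repressor form limits digit number, was lower in each E11.5 library without passing (-0.58 ± 0.26, adjusted p = 0.0773).

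The same list held transcription factors of the posterior and distal mesenchyme. Sall1 was at 1.59, 1.5 and 3.20 TPM at E10.5 and 5.55, 9.50 and 5.61 TPM at E11.5 and rose by 1.35 ± 0.37 (adjusted p = 0.00766). Its relative Sall3 and the connective tissue regulator Osr1 rose too (0.62 ± 0.19 and 0.87 ± 0.23, adjusted p = 0.013 and 0.00526). Alx4, an anterior factor that opposes Shh, was at 6.26, 6.08 and 5.14 TPM at E10.5 and 2.0, 1.84 and 2.41 TPM at E11.5. It was the member that fell, to less than each E10.5 level (-1.15 ± 0.22, adjusted p = 0.000535). Hand2, which activates Shh, was at 2.42, 5.44 and 9.22 TPM at E10.5 and 8.38, 11.1 and 8.16 TPM at E11.5, overlapped between days and did not pass (0.74 ± 0.31, adjusted p = 0.0611). Grem1, the BMP antagonist that couples Shh to the ridge, was at 2.07, 4.39 and 6.40 TPM at E10.5 and 6.84, 6.10 and 5.38 TPM at E11.5 and did not pass either (0.51 ± 0.29, adjusted p = 0.167). In Shh, Ptch1, Gli1, Gli2, Hand2 and Grem1, E10.5 replicate 1 was the lowest and replicate 3 the highest of their group. Without E10.5 replicate 1, 5 members rose. Single libraries decided 3 calls, as the adjusted p was 0.0522 for Gli1 without E10.5 replicate 1, 0.0526 to 0.0732 for Sall3 without E10.5 replicate 1 or 2 or E11.5 replicate 2, and 0.0896 to 0.191 for Shh without E10.5 replicate 1 or 2 or E11.5 replicate 1 or 2.

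**Figure D2:**
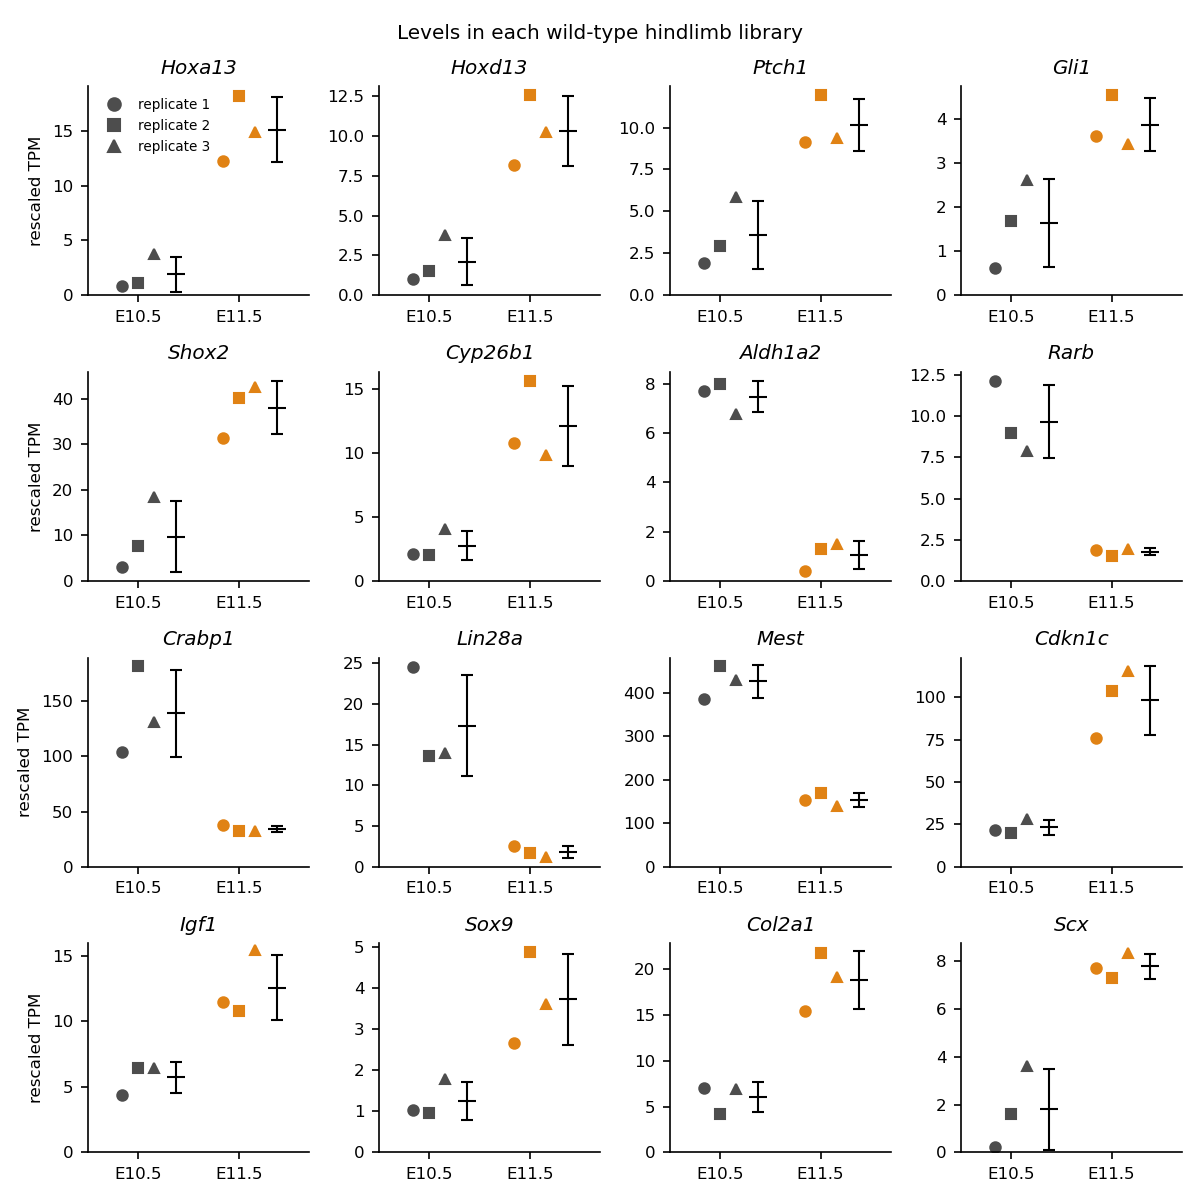
Rescaled TPM of 16 genes in each of the 6 wild-type hindlimb libraries (markers by replicate number, linear axes from 0; dash and bar give mean ± SD, n = 3). In the 9 panels for Hoxa13, Hoxd13, Ptch1, Gli1, Shox2, Cyp26b1, Cdkn1c, Sox9 and Scx, E10.5 replicate 3 is the highest of its group.

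Retinoic acid genes changed on both sides of the pathway. Of 20 tested genes, 6 fell and 3 rose (median -0.21); on the deposited scale 11 fell. Aldh1a2 (chromosome 9, 71215789 to 71296243), the enzyme that makes retinoic acid in the flank and proximal bud, was at 7.70, 7.98 and 6.78 TPM at E10.5 and 0.422, 1.30 and 1.48 TPM at E11.5. All E10.5 libraries lay above 6 TPM and all E11.5 libraries below 2 TPM (-2.08 ± 0.52, adjusted p = 0.00433). The flank markers Gata6 and Wt1 given above fell as well (adjusted p = 0.0168 and 0.000475), and their part in the fall of Aldh1a2 was not tested. Cyp26b1 (chromosome 6, 84571414 to 84593908), the enzyme that clears retinoic acid from the distal bud, was at 2.14, 2.05 and 4.05 TPM at E10.5 and 10.8, 15.7 and 9.86 TPM at E11.5 and rose by 1.82 ± 0.38 (adjusted p = 0.0011). Rdh10, which makes the precursor retinaldehyde, fell (-0.69 ± 0.20, adjusted p = 0.0107, or 0.0502 without E11.5 replicate 2). Crabp1, a cellular binding protein, was at 104, 182 and 131 TPM at E10.5 and 37.6, 32.5 and 32.5 TPM at E11.5, highest in E10.5 replicate 2. The E11.5 libraries were close together and far below (-1.96 ± 0.30, adjusted p = 9.28e-05), and Crabp2 fell less (-0.59 ± 0.16, adjusted p = 0.00583).

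Of the receptors, 1 rose and 1 fell. Rarb (chromosome 14, 16430839 to 16819156), a receptor gene that retinoic acid itself induces, was at 12.2, 8.98 and 7.89 TPM at E10.5 and 1.86, 1.52 and 1.94 TPM at E11.5. The lowest E10.5 library was about 4 times the highest E11.5 library (-1.93 ± 0.32, adjusted p = 0.000169). Rarg, the receptor of condensing mesenchyme, was at 4.30, 7.80 and 10.9 TPM at E10.5 and 14.5, 19.5 and 15.8 TPM at E11.5, without overlap (1.09 ± 0.29, adjusted p = 0.00604). Rara, Rxra and Rxrb did not pass (0.12 ± 0.17, -0.01 ± 0.20 and -0.20 ± 0.11, adjusted p = 0.585, 0.963 and 0.169). The proximal factor Meis3 was at 6.16, 2.89 and 1.95 TPM at E10.5 and 0.534, 0.45 and 0.7 TPM at E11.5 and fell by 1.48 ± 0.29 (adjusted p = 0.000777). Meis1 and Meis2, the abundant proximal markers, were lower in each E11.5 library but did not pass (-0.51 ± 0.21 and -0.31 ± 0.20, adjusted p = 0.0629 and 0.224). Shox2 (chromosome 3, 66971727 to 66981771), which is needed for the upper limb skeleton, was listed with the proximal genes but rose, from 3.12, 7.76 and 18.4 to 31.5, 40.1 and 42.6 TPM (2.13 ± 0.42, adjusted p = 0.000818). E10.5 replicate 3 held more than 5 times the level of replicate 1, and the groups did not overlap.

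The Rarb promoter is shown because it holds a direct repeat of the kind known as a retinoic acid response element. The search was for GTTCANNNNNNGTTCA (GTTCA repeated after 6 further bases) on both strands of the 250 bases before the start in RefSeq (GRCm38.p6); the stretch is chr14:16575477-16575568, minus strand, and capitals mark the match, which begins 52 bases before the start.
Rarb: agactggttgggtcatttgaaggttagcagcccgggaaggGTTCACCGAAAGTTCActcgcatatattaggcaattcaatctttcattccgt
The repeat was found before 21 of 27025 genes (0.0777%). Among the list's members with a promoter sequence it lay before 1 of 4 that fell (Rarb), 0 of 3 that rose and 0 of 8 that did not pass. A match describes these letters and is neither a binding site nor a cause of the change.

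Genes of FGF signalling and the apical ridge moved in both directions. Of 23 tested, 4 rose and 2 fell, 17.4% and 8.7% beside 23% and 17.9% of all genes tested. The median was 0.12, or -0.39 with 2 rises and 6 falls on the deposited scale. Fgf8, the main ridge factor, was at 9.83, 12.9 and 16 TPM at E10.5 and 24.1, 12 and 8.20 TPM at E11.5. It was highest in E11.5 replicate 1 and the groups overlapped (0.08 ± 0.39, adjusted p = 0.893). Fgf10, the mesenchymal partner of Fgf8, also did not pass (-0.10 ± 0.17, adjusted p = 0.665). Fgf18 was at 0, 0.18 and 0.0696 TPM at E10.5 and 1.59, 2.64 and 2.09 TPM at E11.5, near 0 in the first group and higher in every library of the second (1.51 ± 0.29, adjusted p = 0.000542). Fgf9, the ectodermal homeobox gene Dlx2 and the feedback inhibitor Spry2 rose by 0.58 ± 0.21, 0.81 ± 0.16 and 0.75 ± 0.26 (adjusted p = 0.0315, 0.000835 and 0.0266). Dusp6, a phosphatase induced by FGF, was at 37.9, 43.5 and 36.7 TPM at E10.5 and 25.3, 24.1 and 19.6 TPM at E11.5. It fell below the E10.5 range, as did Rspo2, the ridge R-spondin (-0.76 ± 0.23 and -0.50 ± 0.16, adjusted p = 0.0153 and 0.0198). The rises were 2 without E10.5 replicate 1 or E11.5 replicate 2, and the falls were 1 without E10.5 replicate 1 and 0 without E10.5 replicate 2 or E11.5 replicate 3. By gene, the adjusted p reached 0.0537 to 0.0658 for Dusp6 without E10.5 replicate 2 or E11.5 replicate 3, 0.0575 to 0.1 for Rspo2 without E10.5 replicate 1 or 2 or E11.5 replicate 3, 0.0548 to 0.108 for Fgf9 without E10.5 replicate 1 or 3 or E11.5 replicate 2 or 3, and 0.0533 to 0.154 for Spry2 without E10.5 replicate 1 or 2 or E11.5 replicate 1 or 2.

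BMP signalling genes rose where they changed. Of 27 tested, 11 rose and none fell (median 0.37); on the deposited scale 2 rose, 3 fell and the median was -0.20. Among ligands, Gdf5, which marks future joints, was at 0.117, 0.0138 and 0.0264 TPM at E10.5 and 0.761, 1.28 and 1.20 TPM at E11.5. It was close to 0 in all E10.5 libraries and rose by 0.97 ± 0.23 (adjusted p = 0.00266), and Gdf11 rose by 0.56 ± 0.15 (adjusted p = 0.00726). Bmp4 and Bmp7 did not pass (0.14 ± 0.15 and 0.16 ± 0.16, adjusted p = 0.462 and 0.431). Of the receptors, Bmpr1b, needed for condensation, was at 1.20, 0.613 and 0.718 TPM at E10.5 and 1.31, 2.12 and 2.09 TPM at E11.5 and passed (0.62 ± 0.17, adjusted p = 0.00635). Bmpr1a and Bmpr2 rose by 0.57 ± 0.11 and 0.46 ± 0.18 (adjusted p = 0.000618 and 0.0498), but on the deposited scale Bmpr1a, Bmpr2 and Gdf11 were at -0.06, -0.07 and -0.01. The call of Bmpr2 was lost without any one library except E11.5 replicate 1 (adjusted p 0.0896 to 0.189).

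Inside the cell, the transducer Smad1 and the inhibitory Smad6 rose (0.58 ± 0.12 and 0.57 ± 0.17, adjusted p = 0.00097 and 0.0127). The target Id2 rose (0.44 ± 0.14, adjusted p = 0.0161), whereas Id1, Id3, Msx1 and Msx2, which also respond to BMP, did not pass, with changes from -0.13 to 0.26. Antagonists rose as well. Nbl1 was at 1.01, 0.42 and 1.14 TPM at E10.5 and 4.31, 4.93 and 4.52 TPM at E11.5, the largest change of the list (1.61 ± 0.31, adjusted p = 0.000578). Chrdl1 was at 0.537, 1.23 and 2.03 TPM at E10.5 and 2.54, 4.52 and 3.62 TPM at E11.5 and follistatin (Fst) at 0.43, 0.0684 and 0.0654 TPM at E10.5 and 0.714, 0.96 and 1.12 TPM at E11.5. Neither gene overlapped between days (1.04 ± 0.24 and 0.71 ± 0.23, adjusted p = 0.00207 and 0.0218). Without E10.5 replicate 3 or E11.5 replicate 1, 1 member of the list fell. Calls lost with a library left out had an adjusted p of 0.0576 to 0.0741 for Fst without E10.5 replicate 2 or 3 or E11.5 replicate 2 or 3, 0.08 to 0.0847 for Id2 without E10.5 replicate 1 or E11.5 replicate 3, and 0.0608 for Smad6 without E10.5 replicate 2, and Id2 was at -0.20 on the deposited scale.

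Wnt genes moved in both directions. Of 41 tested, 11 rose and 5 fell, 26.8% and 12.2% beside 23% and 17.9% of all genes tested (median 0.23, or -0.28 with 3 rises and 12 falls on the deposited scale). Wnt11, a ligand of the distal and later the peripheral mesenchyme, was at 0.246, 0.475 and 1.16 TPM at E10.5 and 2.50, 2.51 and 2.95 TPM at E11.5 and rose by 1.21 ± 0.22 (adjusted p = 0.000384). The co-receptors Lrp5 and Lrp6 were both higher in every E11.5 library (0.90 ± 0.16 and 0.86 ± 0.17, adjusted p = 0.000403 and 0.000689). Tcf7l1, a nuclear partner of beta-catenin, and the secreted inhibitor Wif1 rose by 1.17 ± 0.25 and 1.17 ± 0.26 (adjusted p = 0.00143 and 0.00199). The 5 that fell, named here after their values were seen, were Wnt2, Ror1, Rspo2, Rspo4 and the secreted inhibitor Sfrp1. Sfrp1 was at 6.88, 10.47 and 7.74 TPM at E10.5 and 2.54, 2.87 and 3.48 TPM at E11.5, without overlap (-1.23 ± 0.29, adjusted p = 0.00267). Wnt2 was at 3.49, 6.99 and 2.22 TPM at E10.5 and 0.353, 0.344 and 0.342 TPM at E11.5 with a wide spread at E10.5 and no overlap (-1.85 ± 0.54, adjusted p = 0.0104). In the forelimb Wnt2 differed by -0.01 ± 0.54 (adjusted p = 0.992); the difference between the limbs had an adjusted p of 0.661. The falls of Rspo2, Rspo4 and Wnt2 each depended on a library: the adjusted p was 0.0575 to 0.1 for Rspo2 without E10.5 replicate 1 or 2 or E11.5 replicate 3, 0.0644 for Rspo4 without E10.5 replicate 2, and 0.0559 for Wnt2 without E10.5 replicate 2. The dorsal genes Lmx1b and Wnt7a overlapped between days (0.47 ± 0.31 and -0.07 ± 0.21, adjusted p = 0.238 and 0.829).

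Genes of the limb mesenchyme, most of them transcription factors, moved in both directions. Of 31 tested, 7 rose and 7 fell, 22.6% each beside 23% and 17.9% of all genes tested (median 0.21, or -0.36 with 2 rises and 9 falls on the deposited scale). Tbx18 was at 1.27, 2.23 and 2.89 TPM at E10.5 and 8.46, 12.6 and 13 TPM at E11.5, the rise with the lowest adjusted p of the list (1.99 ± 0.29, adjusted p = 6.37e-05). Cdh11, the mesenchymal cadherin, was at 16.5, 22.1 and 23.8 TPM at E10.5 and 35.7, 47.2 and 44.8 TPM at E11.5 and rose by 1.0 ± 0.20 (adjusted p = 0.000675). Prrx1, given because its promoter drives the Cre of the mutants and so chosen after its values were seen, was at 17.2, 30.8 and 40.3 TPM at E10.5 and 54.6, 64.3 and 66.3 TPM at E11.5. Its E10.5 libraries spread more than 2-fold, yet all lay below the E11.5 libraries (1.12 ± 0.27, adjusted p = 0.00348). The aristaless-related factors, which mark anterior and proximal mesenchyme, fell together. Alx1 was at 2.75, 2.65 and 1.72 TPM at E10.5 and 0.453, 0.358 and 0.431 TPM at E11.5, and neither Alx1 nor Alx4 overlapped between days (-1.24 ± 0.30 and -1.15 ± 0.22, adjusted p = 0.00296 and 0.000535).

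Most of the cartilage genes that could be tested rose. Of 19 tested members, 13 rose and 1 fell (median 0.77), and all 13 were higher in every E11.5 library; on the deposited scale 5 rose and the median was 0.53. The list names 37 genes, of which 35 were in the files, and 16 of those were too low to be tested. A gene near 0 at E10.5 can pass the filter on low values through its E11.5 levels, so the tested members lean toward rises. With no filter on low values, 13 of 35 rose, 1 fell and the median was 0.25. Sox9, the master regulator of chondrocytes, was at 1.03, 0.951 and 1.78 TPM at E10.5 and 2.67, 4.89 and 3.63 TPM at E11.5 and rose by 1.06 ± 0.24 (adjusted p = 0.00187). Its partners Sox5 and Sox6 rose by 1.52 ± 0.27 and 0.77 ± 0.22 (adjusted p = 0.000365 and 0.0104). Col2a1 (chromosome 15, 97975602 to 98004695), the main cartilage collagen, was at 7.01, 4.16 and 6.93 TPM at E10.5 and 15.5, 21.7 and 19.1 TPM at E11.5. The lowest E11.5 library held more than 2 times the highest E10.5 library (1.51 ± 0.25, adjusted p = 0.000161). Col9a1 was at 2.05, 3.22 and 4.55 TPM at E10.5 and 7.47, 10.4 and 12 TPM at E11.5 and Col9a2 at 0.00914, 0 and 0.0988 TPM at E10.5 and 0.882, 1.89 and 1.86 TPM at E11.5. The second of these collagen IX chains was close to 0 at E10.5, and both rose (1.38 ± 0.24 and 1.27 ± 0.29, adjusted p = 0.0003 and 0.00241). Versican (Vcan), the proteoglycan of precartilage, was the most abundant member, at 17.2, 21.7 and 17.8 TPM at E10.5 and 43.2, 59.9 and 64.0 TPM at E11.5 (1.5 ± 0.23, adjusted p = 8.83e-05).

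Other members differed in level and direction. Trps1 and Runx2, regulators of chondrocyte and bone differentiation, rose by 1.14 ± 0.25 and 0.67 ± 0.20 (adjusted p = 0.00159 and 0.0142), with Runx2 at no more than 1.38 TPM in any library and an adjusted p of 0.104 without E11.5 replicate 3. Acan, the aggrecan gene of mature cartilage, was at most 0.03 TPM, Ihh at most 0.07 TPM and Comp at most 0.01 TPM in the 6 libraries. Hapln1, a link protein, went against the rest at 8.87, 7.55 and 8.59 TPM at E10.5 and 5.37, 2.90 and 3.29 TPM at E11.5. It fell below the E10.5 range (-0.97 ± 0.25, adjusted p = 0.00512).

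Genes of tendon and loose connective tissue followed the cartilage genes. Of 41 tested, 19 rose and 2 fell, with a median of 0.45. On the deposited scale 9 rose, and 12 rose in a fit of the 6 libraries alone. With no filter on low values, 19 of 49 rose and the median was 0.38. Scx, the tendon progenitor factor, was chosen after its values were seen. It was at 0.209, 1.59 and 3.60 TPM at E10.5 and 7.70, 7.30 and 8.34 TPM at E11.5 and rose by 1.85 ± 0.40 (adjusted p = 0.0015). Mkx, a later tendon factor, was at 0.0634, 0.832 and 0.89 TPM at E10.5 and 4.19, 4.32 and 3.66 TPM at E11.5, with every E11.5 level over 3 TPM (1.71 ± 0.26, adjusted p = 9.34e-05). Col1a2, of type I collagen, was at 6.0, 10.1 and 7.86 TPM at E10.5 and 19.3, 24.3 and 27.6 TPM at E11.5 and rose by 1.47 ± 0.20 (adjusted p = 2.90e-05). Col12a1, Col6a3 and the crosslinking enzyme Loxl1 rose by 1.48 ± 0.19, 1.29 ± 0.24 and 0.94 ± 0.13 (adjusted p = 2.33e-05, 0.000479 and 4.42e-05). The falls, named after their values were seen, were Col14a1 and Loxl2 (-0.93 ± 0.26 and -0.63 ± 0.17), and the adjusted p was 0.0721 for Col14a1 without E10.5 replicate 1. Muscle markers, which come from migrating somite cells, stood at 24.9 to 27.0 TPM in sum at E10.5 and 28.9 to 44.2 TPM at E11.5 over 32 genes, with the defining Myod1 at no more than 0.577 TPM and Pax7 at no more than 0.297 TPM. Of 21 tested, 7 rose and 1 fell (Pax3, -0.55 ± 0.19). On the deposited scale 3 rose and 3 fell, and in a fit of the 6 libraries alone 3 of 10 rose. Myf5 and Tnnt1 rose from below 0.6 TPM (0.82 ± 0.24 and 1.42 ± 0.44, adjusted p = 0.0116 and 0.0159). Without E10.5 replicate 2 or E11.5 replicate 3, 4 muscle genes rose, with an adjusted p of 0.0587 for Myf5 without E10.5 replicate 2 and 0.0566 for Tnnt1 without E11.5 replicate 3. The fall of Pax3 was lost without E10.5 replicate 1 or any one E11.5 library (0.0505 to 0.188), and 2 muscle genes fell without E10.5 replicate 3. The part of muscle cells in the connective tissue changes was not tested.

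Of 16 tested genes of the LIN28 and early embryonic growth list, 8 fell, 2 rose and 6 did not pass (median -0.32; 8 fell and none rose on the deposited scale). Lin28a (chromosome 4, 134003330 to 134018841), an RNA-binding protein that blocks let-7 microRNAs, was at 24.5, 13.6 and 13.9 TPM at E10.5 and 2.55, 1.65 and 1.15 TPM at E11.5. All E10.5 libraries exceeded 13 TPM and no E11.5 library reached 3 TPM (-2.70 ± 0.36, adjusted p = 2.76e-05). Lin28b was at 19, 18.6 and 16.6 TPM at E10.5 and 9.39, 9.10 and 8.32 TPM at E11.5 and fell less (-0.94 ± 0.25, adjusted p = 0.00644). Among factors linked to let-7, Hmga1 was at 63.6, 66.8 and 83.2 TPM at E10.5 and 34.5, 38.9 and 27.8 TPM at E11.5 and Myc at 4.68, 2.97 and 3.38 TPM at E10.5 and 1.12, 1.38 and 1.39 TPM at E11.5. Both fell without overlap (-1.06 ± 0.17 and -1.01 ± 0.18, adjusted p = 0.000147 and 0.000359), as did Sall4 (-1.0 ± 0.26, adjusted p = 0.00567). The rises, named after their values were seen, were Hmga2 and Igf2bp2, whose groups overlapped (0.57 ± 0.20 and 0.44 ± 0.16, adjusted p = 0.0285 and 0.0334). They were 0 without E10.5 replicate 1, E10.5 replicate 2 or E11.5 replicate 2, 1 without either other E11.5 library and 4 without E10.5 replicate 3. Hmga2 and Igf2bp2 were at -0.08 and -0.19 on the deposited scale. The falls were 5 without E11.5 replicate 3.

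The insulin-like growth factor axis rose instead. Of 12 tested, 7 rose and none fell (median 0.64), but on the deposited scale none of them passed and the median was 0.05. With no filter on low values, 6 of 18 rose and the median was 0.20. Igf1, the growth factor, was at 4.36, 6.42 and 6.42 TPM at E10.5 and 11.48, 10.8 and 15.4 TPM at E11.5 and rose by 1.01 ± 0.21 (adjusted p = 0.00123). Igf2, the abundant fetal ligand, was at 102, 125 and 160.3 TPM at E10.5 and 193, 231 and 234 TPM at E11.5. The groups did not overlap, and E10.5 replicate 1 was lowest (0.78 ± 0.18, adjusted p = 0.00212). The adaptors Irs1 and Irs2 and the insulin receptor Insr rose by 1.0 ± 0.17, 1.05 ± 0.19 and 0.55 ± 0.14 (adjusted p = 0.000265, 0.000407 and 0.00379).

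Imprinted growth genes, which overlap that list in Igf2 and H19, moved in both directions. Of 19 tested, 4 rose and 5 fell, 21.1% and 26.3% beside 23% and 17.9% of all genes tested. On the deposited scale 1 rose and 8 fell, and 3 fell without E11.5 replicate 1. Cdkn1c (chromosome 7, 143458339 to 143461050), a maternally expressed inhibitor of cyclin-dependent kinases, was at 21.7, 19.7 and 28.4 TPM at E10.5 and 75.9, 104 and 115 TPM at E11.5. Each E11.5 library held more than 2 times any E10.5 library (2.03 ± 0.24, adjusted p = 9.92e-06). Mest, a paternally expressed mesodermal gene, was at 386, 463 and 431 TPM at E10.5 and 152, 169 and 139 TPM at E11.5 and fell by 1.47 ± 0.18 (adjusted p = 1.27e-05). Dlk1, also paternally expressed, was at 19.7, 21.2 and 21.2 TPM at E10.5 and 3.55, 6.45 and 4.79 TPM at E11.5. Its E10.5 libraries agreed closely and lay far above those of E11.5 (-1.90 ± 0.36, adjusted p = 0.000606). Impact fell (-0.67 ± 0.13, adjusted p = 0.000766), and the remaining calls, also picked out by value, were H19 and Sgce higher and Peg10 and Rtl1 lower. Of these, the adjusted p was 0.0594 for Peg10 without E11.5 replicate 1, 0.0812 to 0.0832 for Sgce without E10.5 replicate 3 or E11.5 replicate 3, and 0.0518 to 0.161 for Rtl1 without E10.5 replicate 1 or 2 or E11.5 replicate 1, 2 or 3, and Sgce was at -0.23 on the deposited scale.

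Cell cycle genes fell in part, and 7 of 13 tested inhibitors of the cycle rose. Of 34 genes of G1 and S phase, 12 fell and 3 rose (median -0.07), and of 30 genes of G2 and mitosis 11 fell and 2 rose (median 0.00). No member of either list rose on the deposited scale. Cdk4, the kinase that cyclin D activates, was at 343, 403 and 356 TPM at E10.5 and 192, 179 and 177 TPM at E11.5. Every E11.5 library held less than every E10.5 library, with little spread (-1.0 ± 0.09, adjusted p = 8.02e-07). Cdc6, which loads the replicative helicase, was at 15.1, 13.8 and 12.6 TPM at E10.5 and 5.61, 5.59 and 5.25 TPM at E11.5 and fell by 1.19 ± 0.15 (adjusted p = 1.26e-05). Ccnd3, Chaf1b and Rrm2 fell (-0.88 ± 0.11, -0.75 ± 0.09 and -0.90 ± 0.13, adjusted p = 1.35e-05, 1.51e-05 and 7.64e-05). The cyclins Ccnd1 and Ccnd2 and the transcription factor E2f1 rose (0.43 ± 0.16, 0.91 ± 0.27 and 0.55 ± 0.13), named after their values were seen. For the cyclins the adjusted p was 0.145 to 0.162 for Ccnd1 without E10.5 replicate 1 or E11.5 replicate 2 and 0.0631 to 0.0633 for Ccnd2 without E10.5 replicate 1 or E11.5 replicate 2. Birc5 (survivin), a mitotic gene, was at 47.0, 49.1 and 45.5 TPM at E10.5 and 24.9, 25.7 and 27.4 TPM at E11.5 (-0.84 ± 0.08, adjusted p = 5.16e-07). Tpx2, Kif20a, Bub1b and Ttk fell (changes of -0.95 to -0.60), while the proliferation marker Mki67 and Cenpf, chosen after their values were seen, rose by 0.55 ± 0.15 and 0.67 ± 0.13 (adjusted p = 0.00739 and 0.000718). On the deposited scale Ccnd1 and Mki67 were at -0.20 and -0.09.

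Of 13 tested inhibitors of the cycle, 7 rose and none fell (median 0.47; on the deposited scale 1 rose, 1 fell and the median was -0.06). Beside Cdkn1c these were led by Gadd45a, a stress and differentiation gene, at 1.52, 1.51 and 1.95 TPM at E10.5 and 4.07, 5.38 and 3.83 TPM at E11.5 (1.02 ± 0.20, adjusted p = 0.000686). The retinoblastoma relatives Rbl1 and Rbl2 rose by 0.47 ± 0.10 and 0.60 ± 0.14 (adjusted p = 0.00116 and 0.00265), with Rbl1 at -0.08 on the deposited scale, and Btg2 rose by 0.77 ± 0.22 (adjusted p = 0.00886). The inhibitors Cdkn1a, Cdkn1b and Cdkn2d did not pass, and Cdkn2a, Cdkn2b and Cdkn2c were too low to be tested. Targets of p53 were few among the calls, with 3 of 19 higher and 2 lower (1 and 6 on the deposited scale). Pmaip1 (Noxa), a pro-apoptotic BH3 gene, was at 0.0915, 0.79 and 1.53 TPM at E10.5 and 5.64, 6.75 and 6.13 TPM at E11.5, all E11.5 libraries being above 5 TPM (2.07 ± 0.34, adjusted p = 0.000154). Trp53inp1 and Btg2 rose, and Aen and Plk2 fell (0.89 ± 0.23, 0.77 ± 0.22, -0.94 ± 0.15 and -0.38 ± 0.11).

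Genes at several steps of glycolysis fell. Of 29 genes of glycolysis, lactate export and the hypoxia response, 11 fell, each without overlap, and 5 rose (median -0.18; 13 fell and none rose on the deposited scale). Slc2a1, the glucose transporter GLUT1, was at 18, 21.4 and 15.7 TPM at E10.5 and 8.15, 7.41 and 7.23 TPM at E11.5 and fell by 1.16 ± 0.17 (adjusted p = 6.83e-05). Pgk1, phosphoglycerate kinase, was at 199, 169.8 and 140.1 TPM at E10.5 and 87.9, 79.0 and 78.6 TPM at E11.5. Pgam1, the mutase of the next step, was at 113, 104 and 118 TPM at E10.5 and 52.3, 56.1 and 44.9 TPM at E11.5. Both had more than 1.5 times the highest E11.5 level in every E10.5 library (-1.03 ± 0.14 and -1.12 ± 0.12, adjusted p = 3.38e-05 and 3.21e-06). Pkm, pyruvate kinase, was at 333, 359 and 348 TPM at E10.5 and 205, 199 and 185 TPM at E11.5 and fell by 0.82 ± 0.12 (adjusted p = 4.81e-05), and the lactate carrier Slc16a1 fell by 0.72 ± 0.11 (adjusted p = 8.45e-05). The earlier enzymes are given for the order of the pathway, after their values were seen. Hexokinase Hk1 rose and the aldolase Aldoa fell (0.76 ± 0.19 and -0.55 ± 0.17, adjusted p = 0.00352 and 0.0169), and Gpi1, Pfkl, Pfkp and Tpi1 did not pass, with changes from -0.21 to 0.17. The adjusted p was 0.0663 to 0.0828 for Aldoa without E10.5 replicate 2 or E11.5 replicate 3, and Hk1 did not pass on the deposited scale (adjusted p = 0.497).

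The lactate dehydrogenase subunits, also chosen after their values were seen, moved in opposite directions. Ldha, whose enzyme favours lactate, was at 278, 278 and 233 TPM at E10.5 and 133, 139.5 and 124 TPM at E11.5, and Ldhb, whose enzyme favours pyruvate, at 17.9, 40.8 and 45.3 TPM at E10.5 and 66.0, 72.9 and 63.5 TPM at E11.5. The groups of both genes were apart (-0.99 ± 0.16 and 1.04 ± 0.23, adjusted p = 0.000129 and 0.00187), although Ldhb was lowest in E10.5 replicate 1. The other rises were Vegfa, the vascular growth factor, with 5.97, 8.68 and 5.89 TPM at E10.5 and 11.4, 11.3 and 13.9 TPM at E11.5, Hk1, Slc2a3 and Ankrd37 (0.77 ± 0.19, 0.76 ± 0.19, 0.80 ± 0.24 and 0.55 ± 0.21). The rises were 3 without E10.5 replicate 1, the adjusted p being 0.077 to 0.189 for Ankrd37 without E10.5 replicate 1 or 3 or E11.5 replicate 2 or 3 and 0.0539 to 0.0874 for Slc2a3 without E10.5 replicate 1 or E11.5 replicate 1. In the forelimb 11 members fell as well and 1 rose.

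**Figure D3:**
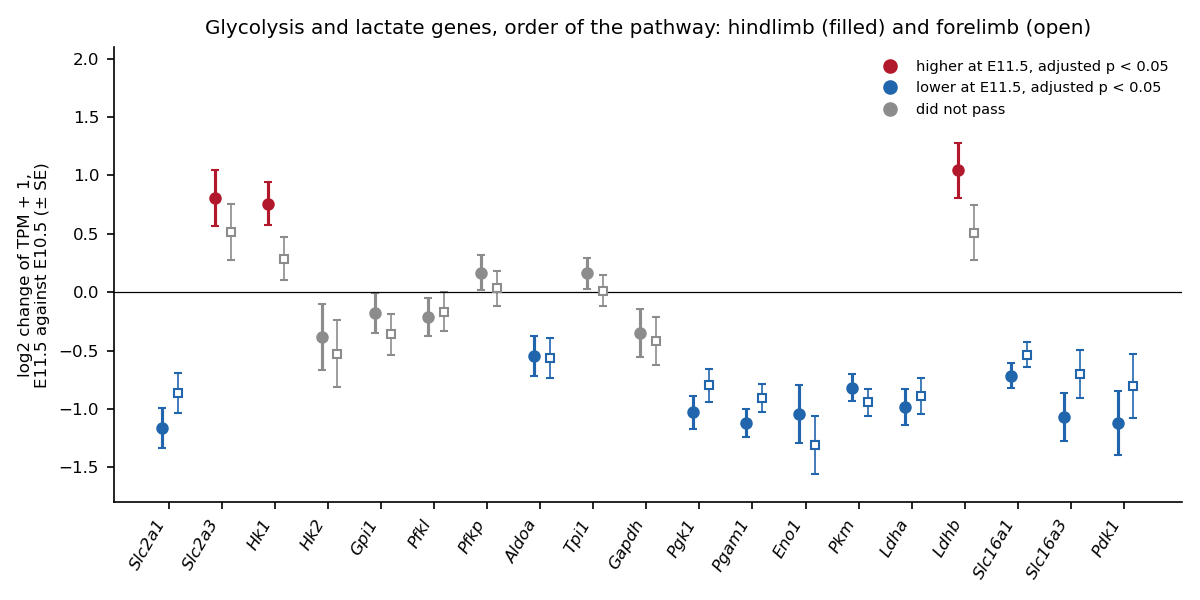
Change of 19 glycolysis and lactate genes from glucose uptake (left) through lactate export to Pdk1 (right), on the log2 scale of rescaled TPM + 1 (± SE), E11.5 against E10.5, in hindlimb (filled) and forelimb (open). From Pgk1 to Ldha every gene lies below 0 in both limbs, while Ldhb lies at 1.04 in the hindlimb.

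Promoters of 4 of these genes are shown because ACGTG, the core letters of the hypoxia response element, lies in them. Both strands of the 250 bases before the start were searched in RefSeq (GRCm38.p6), so CACGTG counts on both. Capitals mark the matches. The stretches are chrX:106186920-106187003 for Pgk1, chr19:41911727-41911791 for Pgam1, chr4:119108679-119108743 for Slc2a1 and chr7:46845629-46845803 for Ldha, all on the plus strand.
Pgk1: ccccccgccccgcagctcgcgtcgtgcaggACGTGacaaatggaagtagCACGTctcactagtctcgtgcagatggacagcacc
Pgam1: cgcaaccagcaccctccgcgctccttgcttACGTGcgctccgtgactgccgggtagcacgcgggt
Slc2a1: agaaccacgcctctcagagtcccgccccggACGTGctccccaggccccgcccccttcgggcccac
Ldha: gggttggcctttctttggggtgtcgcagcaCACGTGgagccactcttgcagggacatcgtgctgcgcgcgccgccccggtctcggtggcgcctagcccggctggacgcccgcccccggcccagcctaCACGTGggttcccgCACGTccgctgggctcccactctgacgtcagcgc
ACGTG was found before 4998 of 27025 genes (18.5%). It lay before 9 of 11 members that fell, 2 of 4 with a promoter sequence that rose (Vegfa and Ankrd37) and 5 of 11 that did not pass. The members are a small set chosen as hypoxia and glycolysis genes, and the matches are a description, not sites of binding or a cause.

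Of 15 tested Notch genes, 7 rose and 1 fell (median 0.24; none rose and 2 fell on the deposited scale, at a median of -0.29). The receptor Notch3 was at 2.27, 2.32 and 2.84 TPM at E10.5 and 4.32, 6.32 and 4.83 TPM at E11.5 and the ligand Jag2 at 1.11, 1.41 and 2.06 TPM at E10.5 and 4.07, 2.86 and 2.70 TPM at E11.5. Both were higher in all E11.5 libraries (0.82 ± 0.17 and 0.74 ± 0.17, adjusted p = 0.00138 and 0.00205). The effectors Hey1 and Hes6 rose and Hey2 fell (1.0 ± 0.20, 0.83 ± 0.17 and -0.82 ± 0.23, adjusted p = 0.000894, 0.000849 and 0.00817). Without E10.5 replicate 1 or E11.5 replicate 2, 4 members rose.

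Proteins of the minor spliceosome, the machine that holds the U11 RNA targeted in the mutants, did not move as a group. Of 14 tested, 3 rose and 2 fell (none and 6 on the deposited scale), 21.4% and 14.3% beside 23% and 17.9% of all genes tested. Zcrb1, a protein of the U11/U12 particle, was at 17.1, 23.4 and 21.2 TPM at E10.5 and 33.0, 35.9 and 31.3 TPM at E11.5 and rose by 0.68 ± 0.11 (adjusted p = 0.000193). Zrsr2 and Rnpc3 rose (0.61 ± 0.16 and 0.53 ± 0.17, adjusted p = 0.00609 and 0.0171), although Rnpc3 was at -0.07 on the deposited scale, and Snrnp35 and Zmat5 fell (-0.51 ± 0.12 and -0.36 ± 0.13, adjusted p = 0.0021 and 0.0405). The falls were 1 without either E10.5 replicate 2 or 3, or without either E11.5 replicate 1 or 2, and the adjusted p was 0.0931 to 0.145 for Zmat5 without E10.5 replicate 2 or 3 or E11.5 replicate 1 or 2, and 0.0614 to 0.0711 for Rnpc3 without E10.5 replicate 3 or E11.5 replicate 1 or 3. Rnu11, the U11 RNA itself, was at 716, 552 and 427 TPM at E10.5 and 2087, 1623 and 922 TPM at E11.5 (1.40 ± 0.49, adjusted p = 0.0301). The call was lost without E10.5 replicate 2 or 3 or E11.5 replicate 1 or 2 (adjusted p 0.063 to 0.113). It is a small RNA, whose class as a whole differed with the day, and it overlaps Gm28872 on the other strand, where the strand counted is not given.

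Markers of other cell types in the bud changed unevenly. Endothelial genes fell in part. Of 25 tested, 9 fell, 1 rose (Clec14a, named after its value was seen) and 15 did not pass. The falls were 36% beside 17.9% of all genes tested. The summed level of 29 endothelial genes was 82.9 to 99.3 TPM at E10.5 and 45.4 to 63.2 TPM at E11.5. No marker of that list was at 0 in all 6 libraries. Emcn, an endothelial sialomucin, was at 11.8, 11.2 and 10.53 TPM at E10.5 and 4.03, 3.22 and 4.96 TPM at E11.5, and Aplnr, the apelin receptor of angiogenic cells, at 4.96, 6.14 and 4.14 TPM at E10.5 and 1.16, 2.11 and 1.79 TPM at E11.5. Neither overlapped between days (-1.28 ± 0.22 and -1.18 ± 0.21, adjusted p = 0.000229 and 0.000348). Esam, Egfl7 and Ramp2 fell (changes of -0.93 to -0.78). The general endothelial markers Pecam1 and Cdh5, named after their values were seen, overlapped between days. Pecam1 was at 5.56, 6.73 and 4.51 TPM at E10.5 and 3.09, 5.39 and 5.55 TPM at E11.5. Cdh5 was at 3.07, 3.24 and 4.61 TPM at E10.5 and 1.38, 3.30 and 2.20 TPM at E11.5. In a fit of protein-coding genes alone 14 endothelial genes fell. The falls were 7 without E10.5 replicate 1 or E11.5 replicate 1 and 11 without E11.5 replicate 2.

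Surface ectoderm markers held 97.6 to 103 TPM in sum at E10.5 and 157, 102 and 90.6 TPM in the E11.5 libraries over 33 genes. Of 27 tested, 7 rose and 2 fell, 25.9% and 7.41% beside 23% and 17.9% of all genes tested (3 and 11 on the deposited scale). Krt14, a keratin of the basal epidermis, was at 1.17, 2.02 and 2.06 TPM at E10.5 and 16.1, 12.4 and 9.94 TPM at E11.5 and rose in all libraries (2.32 ± 0.43, adjusted p = 0.000425). Krt5, its partner, and Krt15 rose by 1.51 ± 0.32 and 1.35 ± 0.29, while Cldn6 and Tfap2c fell (-1.0 ± 0.25 and -0.73 ± 0.16). The keratins Krt8, Krt18 and Krt19 did not pass, nor did Epcam, Cdh1 and Trp63. E11.5 replicate 1 had the highest sum and also the highest Fgf8, whose part in each other was not tested. Without E11.5 replicate 1, 6 markers fell, and without E10.5 replicate 2, 4 rose.

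Erythroid genes took 1419 to 3558 TPM at E10.5 and 2956 to 3405 TPM at E11.5, with E10.5 replicate 1 lowest. Of 20 tested, 4 rose (Hbb-y, Hbb-bs, Hbb-bt and Nfe2) and none fell, 20% and 0% beside 23% and 17.9% of all genes tested. Hbb-y, the embryonic beta globin, was at 592, 1374 and 1023 TPM at E10.5 and 1801, 1857 and 2065 TPM at E11.5 (1.02 ± 0.31, adjusted p = 0.0138), and the adult Hbb-bs at 1.55, 5.92 and 7.09 TPM at E10.5 and 26.2, 35.7 and 33.3 TPM at E11.5 (2.63 ± 0.62, adjusted p = 0.00282). Hbb-bs and Hbb-bt are near-identical, so their shares are uncertain. The adjusted p was 0.0942 for Hbb-y without E10.5 replicate 1, 0.0503 to 0.167 for Hbb-bt without E10.5 replicate 1 or 3 or E11.5 replicate 1, 2 or 3, and 0.0675 to 0.202 for Nfe2 without E10.5 replicate 1 or 3 or E11.5 replicate 2 or 3. The calls were 1 without E10.5 replicate 1 and 2 without E10.5 replicate 3, E11.5 replicate 2 or E11.5 replicate 3, and 1 member fell without E10.5 replicate 1 or 3. Myeloid markers, 20 in number, summed to 15.1 to 24.2 TPM and 19.4 to 25.8 TPM. Of 10 tested, 2 rose (Lyz2 and Coro1a), both with overlap and Coro1a at -0.06 on the deposited scale; the adjusted p was 0.077 to 0.206 for Lyz2 without E10.5 replicate 1 or 2 or E11.5 replicate 2 or 3, and 0.0517 to 0.181 for Coro1a without E10.5 replicate 2 or 3 or E11.5 replicate 1, 2 or 3. Neuronal markers summed to 10.3 to 13.4 TPM and 13 to 15 TPM over 25 genes, of which 3 passed the filter. Dcx rose (1.15 ± 0.24), while Gap43, at 4.49 to 8.65 TPM, and Tubb3, at 1.32 to 1.97 TPM, did not pass. Below the filter, Elavl3, Snap25 and Neurod1 stayed under 0.17 TPM in each library, while Elavl4 and Nefl reached 0.761 and 0.776 TPM. Schwann and neural crest markers summed to 9.24 to 16.9 TPM and 8.35 to 9.48 TPM over 19 genes, with Sox10 at no more than 0.386 TPM. Of 6 tested, Erbb3 rose and Kit fell; the adjusted p was 0.0643 to 0.098 for Erbb3 without E10.5 replicate 2 or E11.5 replicate 1, and 0.0623 for Kit without E10.5 replicate 1, and 3 fell without E10.5 replicate 3. Pericyte and smooth muscle markers summed to 10.9 to 16 TPM and 12.5 to 16.2 TPM over 12 genes, with Myh11 at no more than 0.0506 TPM, where Notch3 rose and Rgs5 fell among 5 tested. The part of these cells in the changes above was not tested.

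**Figure D4:**
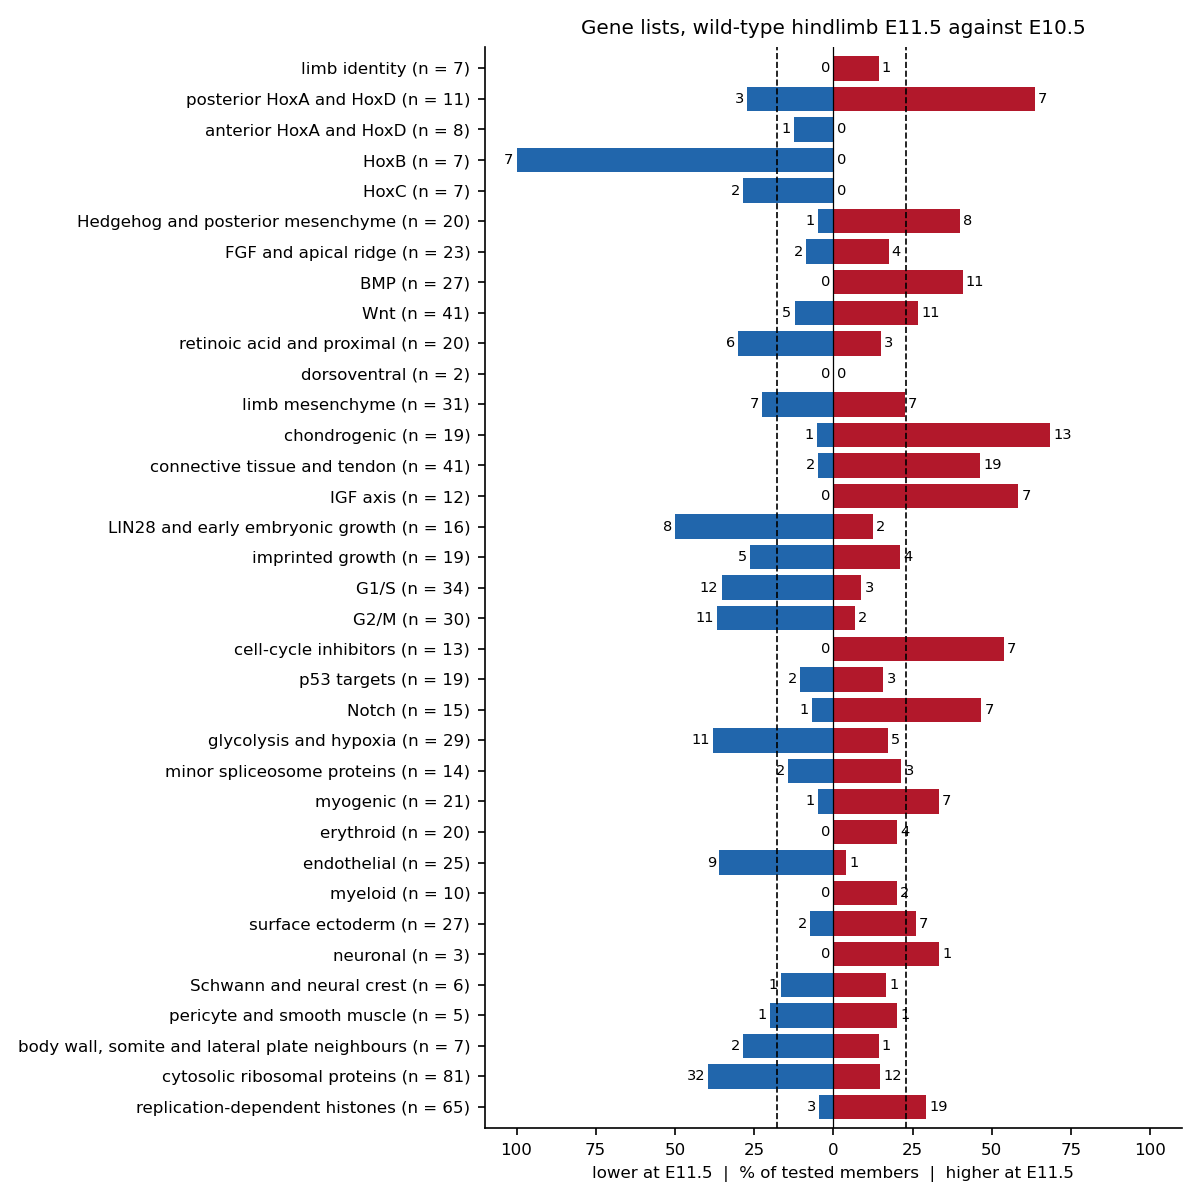
Share of tested members of each gene list called higher (right, red) or lower (left, blue) at E11.5, with the number called at the end of each bar and the number tested beside the name. Dashed lines give the share of all 12399 genes, 23% higher and 17.9% lower; the cartilage list (13 of 19) and the IGF axis (7 of 12) lie beyond the line on the right and HoxB (7 of 7) beyond it on the left.

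Among protein-coding genes past the threshold that reached a mean of 5 TPM in the higher group, predicted genes (Gm and Rik symbols) left out, the largest rises after the histone genes and Hbb-bs were led by Hoxa13 and by Robo2, a receptor for Slit guidance cues. Robo2 was at 3.61, 5.35 and 5.45 TPM at E10.5 and 27.9, 33.2 and 38.5 TPM at E11.5, far apart between days (2.56 ± 0.34, adjusted p = 2.91e-05). Mab21l2, a limb mesenchyme gene, was at 0.666, 4.09 and 5.83 TPM at E10.5 and 16.4, 20.1 and 19.7 TPM at E11.5, lowest in E10.5 replicate 1 (2.34 ± 0.37, adjusted p = 0.000137). The chemokine Cxcl14 was at 2.21, 3.80 and 5.39 TPM at E10.5 and 22.7, 17.8 and 21.4 TPM at E11.5 (2.22 ± 0.34, adjusted p = 9.34e-05). Tmsb15l, of the thymosin beta family, and Serinc2 rose by 2.08 ± 0.45 and 2.05 ± 0.35 (adjusted p = 0.00158 and 0.000216).

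Among the largest falls outside the groups above were 2 members of the immunoglobulin superfamily found in early mesenchyme and neural tissue. Igdcc3 was at 13.1, 13.1 and 19.9 TPM at E10.5 and 2.84, 2.57 and 2.07 TPM at E11.5, and protogenin (Prtg) at 8.44, 4.12 and 2.83 TPM at E10.5 and 0.811, 1.09 and 0.616 TPM at E11.5. Both fell without overlap (-2.21 ± 0.38 and -1.64 ± 0.27, adjusted p = 0.000255 and 0.000167). Lars2, a mitochondrial leucyl-tRNA synthetase, had the largest fall among protein-coding genes, from 5502, 5371 and 5593 to 1.55, 3.17 and 1.75 TPM (-10.80 ± 1.49). The Lars2 locus holds sequence resembling ribosomal RNA, and its value is uncertain. Among cytosolic ribosomal protein genes, which have many processed copies, 32 of 81 fell and 12 rose (none rose on the deposited scale). The falls were 21 without E10.5 replicate 2 and 19 without E11.5 replicate 2, and the rises 6 without E10.5 replicate 1 and 7 without E11.5 replicate 1. In the forelimb 26 of these genes rose and 19 fell, with a median of 0.001 against -0.19 in the hindlimb. Summed over 84 genes, the hindlimb libraries overlapped between days, at 24810 to 29100 TPM at E10.5 and 22160 to 28610 TPM at E11.5. Rpl27a was at 142, 165 and 107 TPM at E10.5 and 42.1, 31.1 and 39.3 TPM at E11.5 (-1.84 ± 0.21, adjusted p = 6.82e-06).

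Replication-dependent histone genes are near-identical copies among which reads may be split, so single genes are uncertain. Of 65 tested, 19 rose and 3 fell (median 0.40; 6 rose, 17 fell and the median was -0.24 on the deposited scale). Hist1h2bq was at 1.99, 4.39 and 6.25 TPM at E10.5 and 109.6, 88.7 and 93.3 TPM at E11.5 and the similar Hist1h2br at 45.0, 111 and 101 TPM at E10.5 and 5.67, 3.71 and 3.52 TPM at E11.5, so that their changes were opposite (4.32 ± 0.47 and -3.95 ± 0.40). Hist2h2aa2 rose by 3.25 ± 0.73, with E11.5 replicate 3 far below the other E11.5 libraries (1059, 999.7 and 209 TPM), and Hist1h2ao fell by 2.21 ± 0.48. The rises were 9 without E10.5 replicate 1 and 11 without E11.5 replicate 1, and the falls 5 without E10.5 replicate 1.

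The same days were compared in WT forelimb, which shares no library with the hindlimb comparison. In the forelimb 4813 genes were called (38.8%). Over the 12399 genes the stage changes of the limbs correlated at Pearson r = 0.842 and Spearman rho = 0.804, a description across genes, which are not independent and share trimming and RNA make-up by day. Of the 5075 genes called in the hindlimb, 4928 had the same sign in the forelimb, 3401 were called there with that sign and 3 were called with the opposite sign. By group, all 12 fallers among G1 and S phase genes, all 11 among G2 and mitosis genes and all 11 among glycolysis genes were called lower in the forelimb too. Of the 7 HoxB falls 5 were called there, of the 13 cartilage rises 9, of the 11 BMP rises 9, of the 8 Hedgehog rises 1 and of the 3 rises in the retinoic acid list 0. The difference between the limbs was tested as the hindlimb change minus the forelimb change, and 2 genes passed (0.0161%), with 847 at an unadjusted p below 0.05. Neither belonged to these lists. The number was 15 without E10.5 WT HL replicate 3, 5 without E10.5 WT HL replicate 2 or E10.5 WT FL replicate 1, and 4 without E10.5 WT FL replicate 3.

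Gria2 (chromosome 3, 80681450 to 80802835), a subunit of AMPA glutamate receptors, was the protein-coding gene that passed. In the hindlimb it was at 0.0518, 0.255 and 0.399 TPM at E10.5 and 2.35, 2.60 and 4.03 TPM at E11.5, and in the forelimb at 3.93, 6.49 and 3.94 TPM at E10.5 and 1.80, 2.20 and 2.30 TPM at E11.5. It rose in the hindlimb and fell in the forelimb, in all libraries, and the difference was 2.55 ± 0.37 (adjusted p = 0.00817). The other was Gm28037, a gene model at 0 TPM in all 6 hindlimb libraries. Igf1, Pmaip1 and Aldh1a2, named after their values were seen, did not pass. Igf1 changed by 1.01 ± 0.21 in the hindlimb and by -0.63 ± 0.21 in the forelimb, where it was at 3.69, 6.77 and 5.63 TPM at E10.5 and 3.14, 3.05 and 2.86 TPM at E11.5 (difference 1.65 ± 0.30, adjusted p = 0.0877). Aldh1a2 changed by -2.08 ± 0.52 and by 1.33 ± 0.52, being at 0, 0.996 and 0.334 TPM at E10.5 and 1.84, 2.47 and 3.31 TPM at E11.5 in the forelimb (difference -3.41 ± 0.74, adjusted p = 0.215). Pmaip1 changed by 2.07 ± 0.34 and by -0.29 ± 0.34 (difference 2.36 ± 0.47, adjusted p = 0.136). Shox2 rose in the hindlimb by 2.13 ± 0.42 and differed by 0.74 ± 0.42 in the forelimb, with an adjusted p of 0.661 for the difference.

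**Figure D5:**
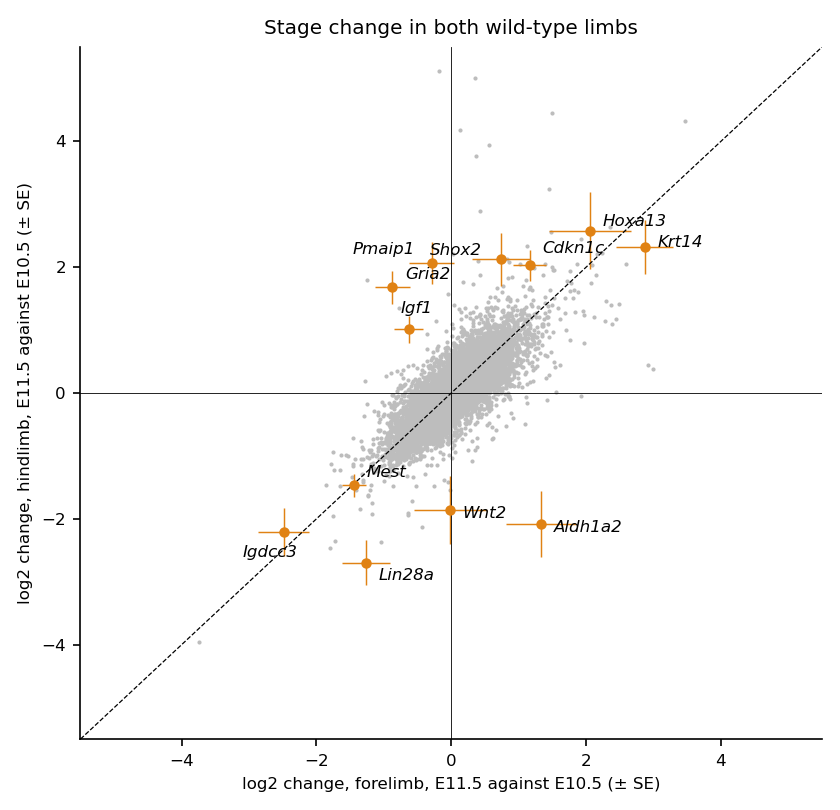
Change from E10.5 to E11.5 of each nuclear protein-coding gene tested, on the log2 scale of rescaled TPM + 1, in forelimb (x) and hindlimb (y); named genes carry ± SE in both directions, the dashed line marks equal change, and Lars2 lies outside the axes. Gria2 lies above 0 in the hindlimb (1.68) and below 0 in the forelimb (-0.87).

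In mutant hindlimb, 4398 genes were called between the same days (35.5%), 2226 higher and 2172 lower. The mutant change is given beside the WT change, with which it shares no library. Unlike the WT hindlimb libraries, 3 of the 6 mutant libraries (E10.5 replicates 1 and 3 and E11.5 replicate 3) held Xist, at 14.5 to 24.9 TPM, and Ddx3y at no more than 0.0281 TPM, so the sexes were mixed there; the part of this in the comparison of genotypes was not tested. Hoxa13 changed by 1.89 ± 0.61, Cdkn1c by 1.80 ± 0.24, Aldh1a2 by -2.39 ± 0.52, Lin28a by -2.58 ± 0.36 and Col2a1 by 1.42 ± 0.25 (adjusted p = 0.0226, 4.11e-05, 0.00198, 5.27e-05 and 0.00032). Hoxd13 and Gli1 did not pass in the mutant (0.76 ± 0.49 and 0.38 ± 0.26, adjusted p = 0.234 and 0.261), and their differences from the WT change had adjusted p = 1 and 1. In the test of the difference, 1 gene passed (0.00807%), with 327 at an unadjusted p below 0.05, and 2 without E10.5 WT HL replicate 2 or 3 or E10.5 Mut HL replicate 2. It was the gene model AC154540.1, at 49.1, 219.5 and 34.5 TPM in E10.5 WT hindlimb and at 0 TPM in the E11.5 WT and all mutant hindlimb libraries.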

How the data were processed

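Total RNA of limb buds was sequenced with a TruSeq stranded kit on a NextSeq500, per the labels. The authors deposited TPM per gene symbol. HISAT2 and mm10 are named in the submitters' processing notes. Quantification program, gene models and strandedness of the counting: not given in the sources used here. TPM keeps no read depth, which is unknown, so no counting error can be given.

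Symbols were matched to GENCODE M21 (36287 of 38019), for gene class and coordinates. Genes reaching 1 TPM in 3 or more of the 24 libraries were kept, libraries rescaled as described above, and log2(TPM + 1) fitted with limma 3.58.1 (R 4.3.3, intensity trend, 8 group means, 16 residual degrees of freedom, two-sided, Benjamini-Hochberg). The code was tested on simulated data. Tables and figures used Python 3.11.15, pandas 2.3.3 and matplotlib 3.10.9. Groups came from the labels, 3 libraries each.

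The genes described and the 35 lists were chosen with earlier results of these data known. Genes were named by rule: the 12 largest rises and falls among called protein-coding genes that did not overlap between days and reached a mean of 5 TPM (without predicted genes, Xist and Y-linked genes), up to 5 called members of each list by adjusted p, all members of 7 lists, and genes passing a difference between limbs or genotypes; others are marked as chosen after their values were seen. A few genes that the rule selects are not reported here. Alternatives were pseudocount 0.1, no filter, the deposited scale, protein-coding genes alone, 6 or 12 libraries, a replicate block, and each library left out.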

Additional observations from a re-analysis of the deposited data

Results flagged for a closer look

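In 3 genes the change from E10.5 to E11.5 in wild-type hindlimb differed from the change in another group, by the limma test of the difference itself. Gria2 changed by 2.55 ± 0.37 more on the log2 scale in hindlimb than in forelimb (SE, adjusted p = 0.00817), with higher values in all 3 E11.5 hindlimb libraries and lower values in all 3 E11.5 forelimb libraries. Gm28037, a gene model, differed by 6.18 ± 0.78 between the limbs (adjusted p = 0.00212), since it was at 0 TPM in all 6 hindlimb libraries and in the E11.5 forelimb libraries but at 61.6, 106 and 56.2 TPM in the E10.5 forelimb libraries. AC154540.1, another gene model, differed by 6.19 ± 0.80 between mutant and wild-type hindlimb (adjusted p = 0.00322), being above 0 TPM in the 3 E10.5 wild-type hindlimb libraries and in no other hindlimb library.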

How the results depend on the processing

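The split of called genes by direction depended most on the scale: without rescaling 270 were higher and 4011 lower at E11.5. With 1 of the 6 hindlimb libraries left out, 3882 to 4829 genes were called, 2131 to 2644 higher and 1751 to 2185 lower. Other settings stayed within 1.5 times the reported counts. The difference between limbs, 2 genes, became 9 with no filter (8 higher, 1 lower) and 1 with protein-coding genes alone (1 higher), and 1 lower gene joined with the 12 WT libraries. With a library left out it ranged from 2 to 15 genes, 2 to 8 higher and 0 to 7 lower, and was 15 without E10.5 WT HL replicate 3. The difference between genotypes, 1 gene, became 3 with no filter (2 higher, 1 lower), 0 with protein-coding genes alone (0 higher) and 1 to 2 with a library left out (1 to 2 higher, 0 to 1 lower).

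On the deposited scale, where the median gene shifts by construction, the sign turned for Bmp4 (-0.461), Bmp7 (-0.389), Bmpr1a (-0.0599), Bmpr2 (-0.0747), Ccnd1 (-0.196), Coro1a (-0.0631), Fgf8 (-0.533), Gdf11 (-0.0124), Grem1 (-0.0203), Hmga2 (-0.0772), Hoxa11 (-0.0628), Hoxa9 (-0.172), Hoxc11 (-0.13), Hoxd11 (-0.377), Id1 (-0.411), Id2 (-0.197), Igf2bp2 (-0.194), Lmx1b (-0.0796), Mki67 (-0.0901), Msx1 (-0.374), Msx2 (-0.278), Pfkp (-0.188), Rara (-0.363), Rbl1 (-0.0817), Rnpc3 (-0.0746), Sgce (-0.228), Tbx4 (-0.422) and Tpi1 (-0.488). With 1 library left out it turned for Fgf8 (-0.318 to 0.405), Hoxd11 (-0.03 to 0.5), Id3 (-0.211 to 0.00953), Rara (-0.0175 to 0.261), Rxra (-0.295 to 0.2), Tbx4 (-0.0487 to 0.396) and Wnt7a (-0.27 to 0.227), genes that had not passed the test. The cause was not tested.

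Same-numbered hindlimb libraries of the 2 days did not deviate together (r = 0.00823, -0.0895 and -0.0516), so between the days the numbers name samples and do not pair them. For the difference between limbs, same-numbered forelimb and hindlimb libraries of E10.5 had r = 0.144, 0.0609 and 0.283, each the highest for its library, and those of E11.5 -0.154, -0.0881 and -0.0437. For the genotypes, these were 0.0187, 0.103 and 0.16 at E10.5 and -0.209, -0.0072 and -0.0378 at E11.5. With the replicate number as a block, 5135 genes were called, 2884 higher and 2251 lower, and the limb and genotype differences held 2 and 1 genes. TPM keep no depth, which limits what can be said of low genes.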

Other observations

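Changes varied little with gene length or base composition. Over the protein-coding genes tested, split into 5 equal groups by exonic length, the median log2 change from E10.5 to E11.5 rose from 0.0092 in the shortest to 0.13 in the longest group. Over 5 groups by GC content it was 0.095, 0.0064, -0.017, 0.030 and 0.15 from the lowest to the highest. Genes are not independent, and no test was made.

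Mitochondrial transcripts held 13.4% ± 2.27 (SD, n = 3) of the deposited TPM at E10.5 and 8.34% ± 1.02 (SD, n = 3) at E11.5, and the signal recognition particle RNAs Rn7s1 and Rn7s2 together 24.4% ± 5.10 and 32.0% ± 2.39 (SD, n = 3 each). The exact two-sided permutation test gave p = 0.1 and p = 0.2.

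Among the largest rises were 7 predicted genes that the naming rule leaves out, Gm10717, Gm10718, Gm10719, Gm10800, Gm10801, Gm11168 and Gm21738, picked out here by value. Gm10800 was at 0.721, 44.3 and 146 TPM in the E10.5 libraries and at 611, 370.1 and 2113 TPM in the E11.5 libraries, a change of 5.12 on the log2 scale (adjusted p = 0.00865 in limma) against -0.18 in the forelimb. Gm21738 changed by 5.01 against 0.35. In both genes E10.5 replicate 1 was lowest and E11.5 replicate 3 highest, and the differences between limbs did not pass (adjusted p = 0.647 and 0.661).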
